A study of Canis lupus familiaris with 2 samples.

Results

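The last 3 Mb of each of the 38 dog autosomes was described in fixed windows of 100 kb, counted from position 1 of each chromosome. A window belonged to a chromosome end when it started within the last 3000000 bp before the highest listed position and held at least 50 CpG sites with 5 or more calls in both libraries. This gave 1138 of 22036 autosomal windows, and 25743 windows on all sequences met the same limit. The data are whole-genome bisulfite sequences of MDCK, a line of epithelial cells from dog kidney, in 2 states. Untreated cells, the control, were grown for 30 days beside cells that received TGF-beta at 5 ng/ml, a cytokine known for inducing the epithelial-to-mesenchymal transition. Medium was DMEM with serum for both, the labelled phenotype is epithelial for the control and mesenchymal after treatment, and whether the line was a single clone is not stated. Expression was not measured in these files, so the labelled phenotypes were not checked. There was 1 library per group, so every difference below is between 2 libraries and has no replicate check.

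Dog autosomes are acrocentric: the centromere lies at one end, and the listed end of each chromosome is its telomere end. Subtelomeric sequence is known to be rich in CpG, with many genes, many repeats and much recombination. In mammalian DNA most CpG sites are methylated, CpG islands at active promoters are usually free of methylation, and cultured cells often carry long domains of partial methylation. Positions are in canFam3, and gene annotation and sequence of that build are not used here.

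Bisulfite turns unmethylated cytosine into uracil, so each call over a CpG cytosine is methylated or unmethylated, and the level of a window is the methylated share of the calls in it. The end windows held 2207840 CpG sites with enough calls, covered by 53980573 control calls and 98296460 treated calls. The median depth of an end window was 25.3 calls per site for the control and 42.9 in treated cells, against 27.3 and 38.4 in the rest of the autosomes. The exact 95% binomial interval of an end window extended a median of 0.418 points to each side in the control and 0.323 in treated cells. Intervals cover counting error only. Calls from PCR copies, from overlapping read mates and from neighbouring CpG sites on the same read are not independent. Intervals can therefore be too narrow. On the grid 1140 windows lay in the ends and 2 were left out. One, on chromosome 16 from 59600001 to 59632754, had 16 kept sites, and the other, on chromosome 25 from 50600001 to 50700000, had 0. Just inside the limit, the last 2.9 kb of chromosome 37 held 59 kept sites, at 89.8% in the control and 86.2% in treated cells.

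The chromosome ends were dense in CpG. The median end window had 18.0 listed CpG sites per kb (quartiles 10.7 and 29.2), against 8.12 (5.82 and 12.1) in the rest of the autosomes. On 37 of 38 chromosomes the median was higher in the end, and on chromosome 9 it was 11.2 against 12.8. The ends made up 5.16% of the windows, held 10.3% of the listed CpG sites, and held 276 of the 616 windows with 30 or more sites per kb. Listed sites are those with at least 1 call in either library, so this density also reflects coverage.

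Before CpG density was taken into account, the ends were more methylated than the rest. The median end window was at 69.3% in the control (quartiles 53.3% and 81.1%, range 19.3% to 94.5%) and at 69.3% in treated cells (54.5% and 81.2%, range 20.4% to 95.4%). The rest was at 61.2% (40.7% and 77.4%) and 61.6% (43.0% and 76.5%). The median was higher in the end on 29 of 38 chromosomes in the control and on 28 in treated cells. Windows under 50%, the range of partly methylated domains, made up 20.8% of end windows and 37.9% of the rest in the control, and 18.7% and 34.9% in treated cells. Windows at 80% or more made up 27.5% and 20.3% in the control and 28.2% and 19.3% in treated cells. Denser windows were more methylated inside the ends as well, with r = 0.46 between listed sites per kb and level over the 1138 windows in the control and r = 0.48 in treated cells. These windows share libraries and chromosomes and are not replicates.

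At matched density the picture divided by density class. From 6 to 20 listed sites per kb, end windows were less methylated than other windows. In the class of 8 to 10 sites per kb the median was 48.9% over 123 end windows and 66.9% over 3138 other windows of the control, and 49.2% and 64.8% in treated cells. In this class 52.0% of end windows and 28.7% of other windows were under 50% in the control. At 10 to 12 sites per kb the medians were 53.1% and 70.0%, at 12 to 15 they were 57.7% and 71.2%, and at 15 to 20 they were 65.2% and 71.8%. The gap was small at 20 to 25 sites per kb, with 70.7% and 71.6%. Above that the medians were in the other order, with 76.4% against 73.2% at 25 to 30 and 77.5% over 276 end windows against 75.1% over 340 other windows at 30 or more. End windows of the densest class were denser than the others in it, with medians of 40.4 and 35.3 sites per kb. In the sparse class of 4 to 6 sites per kb, 34 end windows had a median of 48.2%, against 38.1% in the rest. Among chromosomes with at least 3 end windows and 5 others in a class, the end was lower on 9 of 15 at 6 to 8 sites per kb, 16 of 20 at 8 to 10, 13 of 17 at 10 to 12 and 14 of 21 at 12 to 15. It was lower on 18 of 26 at 15 to 20, 13 of 20 at 20 to 25, 5 of 8 at 25 to 30 and 3 of 9 at 30 or more. At 25 to 30 sites per kb the tally over chromosomes thus went against the order of the pooled medians.

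**Figure D1:**
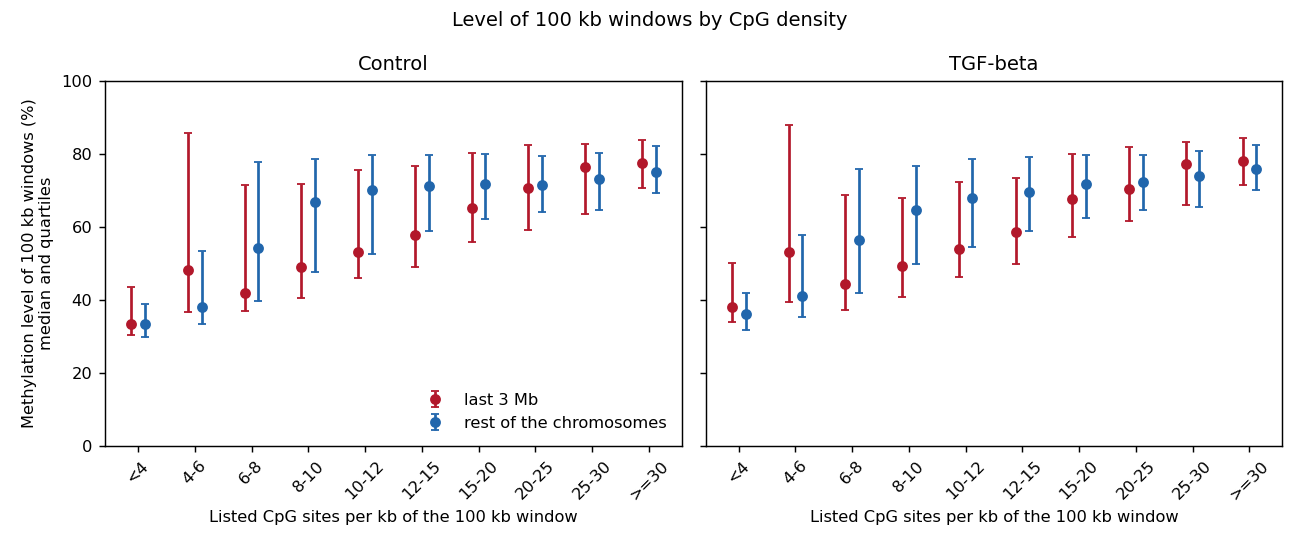
Median methylation level (%) of 100 kb windows, with quartiles as bars, by listed CpG sites per kb, for the last 3 Mb of the autosomes (red) and the rest of the same chromosomes (blue), in the control (left) and treated cells (right). From 6 to 20 sites per kb the red points lie below the blue ones, and at 25 or more they lie above.

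One value for the whole set depended on how windows were matched, and its direction turned. Each end window was set against the mean of the windows of its own chromosome and density class outside the end, where at least 5 existed, which was the case for 949 of 1138 windows. The end windows then differed from the others by a median of -5.25 points in the control (quartiles -16.8 and 7.38) and -4.47 points in treated cells (quartiles -16.5 and 6.27). With the average over sites, which gives each site equal weight, the medians were -4.34 and -4.67 points. Without matching they were 9.11 and 8.40 points, and matching at the scale of 1 kb windows gave 2.36 and 2.26 points. Both of these settings cover all 1138 windows, and that at 1 kb also pools calls. Matching to the 10 nearest windows in density also covers all 1138 windows, and there both medians stayed negative. The setting at 1 kb changed scale and pooling together, so the part of scale in the change of sign was not tested. The 189 windows without a match were dense, with a median of 33.1 sites per kb, and were at a median of 76.7% in the control.

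Density and level both fell from the telomere end inward over the first 5 Mb, and the control level was higher again, at 68.3%, between 5 and 6 Mb. Over the last 1 Mb, the next and the one after, the median density was 21.9, 17.25 and 15.25 sites per kb. The median level over the same stretches was 72.7%, 68.6% and 64.3% in the control and 72.9%, 69.1% and 65.2% in treated cells. Between 3 and 4 Mb from the end the density was 12.4 sites per kb and the control level 61.7%, and between 9 and 10 Mb they were 8.78 sites per kb and 59.4%. Against windows of the same density class more than 10 Mb from the end, the control level differed by a median of -4.41 points in the last 1 Mb. It differed by -9.23 and -9.56 points over the next stretches, and by -8.98 and -9.64 points between 3 and 5 Mb, outside the ends as defined here. In the last 1 Mb this difference was below 0 on 17 of the 34 chromosomes that could be compared. Lower levels at matched density were thus not limited to the last 3 Mb in these values.

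Chromosome ends differed widely from each other. The median matched difference in the control ranged from -39.2 points on chromosome 8 to 15.7 points on chromosome 23, below 0 on 26 chromosomes and above 0 on 12. This tally moved with the matching: 23 chromosomes were below 0 against the 10 nearest windows in density, 19 with matching at 1 kb, 10 without matching and 19 over the last 1 Mb. It was -10 points or lower on 15 chromosomes and 10 points or more on 4. After chromosome 8 the lowest were chromosome 11 at -24.4 points and chromosome 35 at -22.5 points. These rest on the windows that could be matched, 20 on chromosome 8 with 17 below their match, 19 on chromosome 11 with 15 below, and 30 on chromosome 35 with 29 below. The value of chromosome 11 turned to 0.604 points without matching and to 14.6 points over its last 1 Mb alone. After chromosome 23 the highest were chromosome 33 at 13.3 points and chromosome 30 at 12.2 points. Treated cells had -37.3, -22.5 and -22.5 points on the lowest chromosomes 8, 11 and 35, and 14.3, 10.8 and 9.76 points on the highest, 23, 33 and 30. The sign was the same in both libraries on 37 of 38 chromosomes, with chromosome 19 at 4.57 points in the control and -0.52 in treated cells. Over the 38 chromosomes the values of the libraries were related with r = 0.98, as a description of 2 cultures of 1 line. The order of the chromosomes was thus nearly shared by the cultures.

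**Figure D2:**
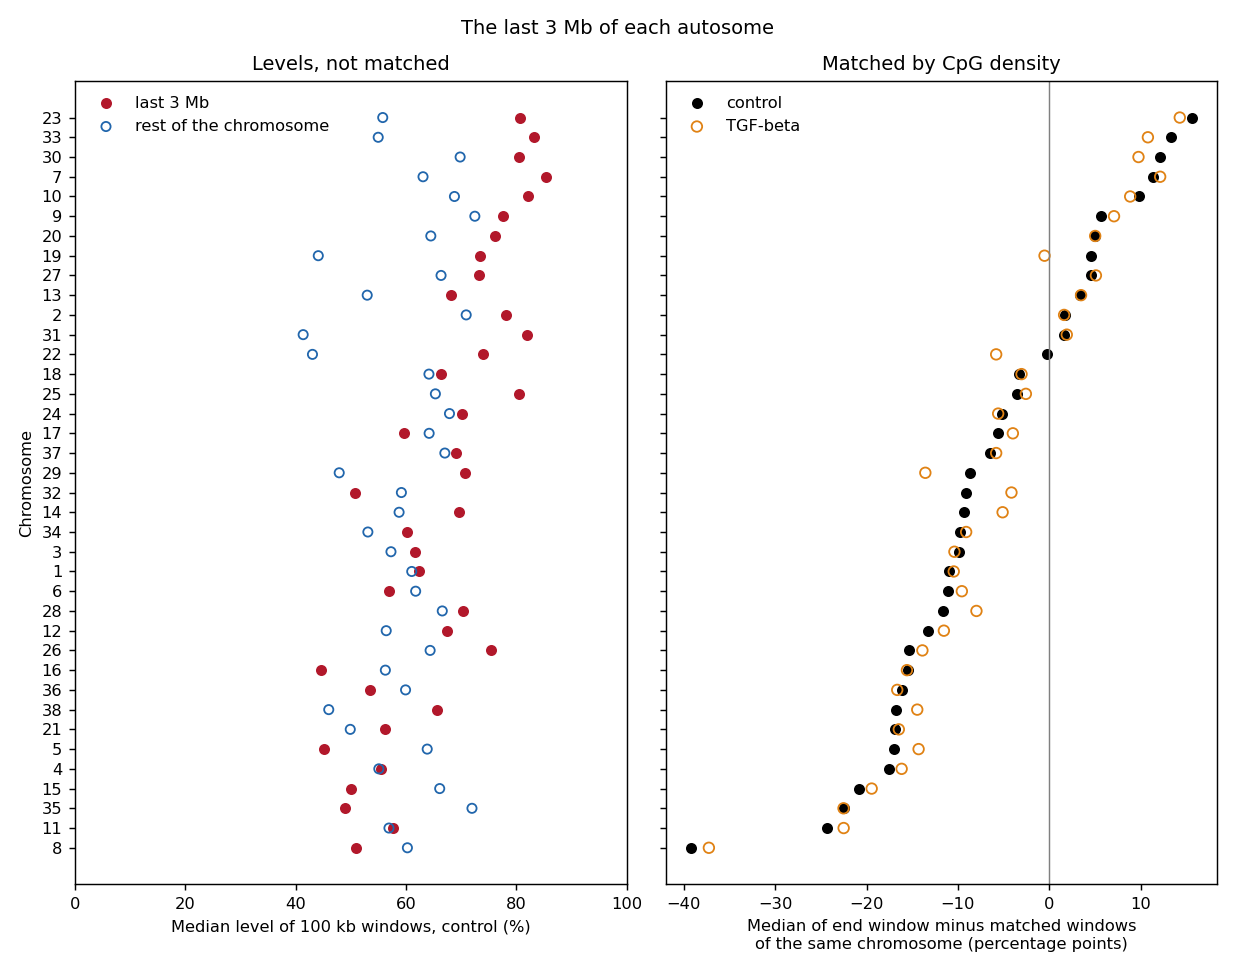
Left, median level (%) of 100 kb windows in the control for the last 3 Mb of each autosome (filled) and the rest of that chromosome (open). Right, the median over end windows of the level minus that of density-matched windows of the same chromosome, in percentage points, for the control (filled) and TGF-beta (open), sorted by the control. Values run from -39.2 points on chromosome 8 to 15.7 on chromosome 23, and the libraries lie close together.

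Low and high windows came in long stretches. Adjacent end windows had similar levels, with r = 0.82 over 1099 adjacent pairs in the control and r = 0.80 in treated cells. Of the 237 end windows under 50% in the control, 164 lay in 28 stretches of at least 3, and 157 lay on 11 chromosomes with 10 or more such windows. On 9 chromosomes no end window was under 50%. Of the 313 end windows at 80% or more, 209 lay in 44 stretches of at least 3.

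The longest stretch under 50% ran to the telomere end of chromosome 8. It covered 15 windows from 72900001 to 74330371 and was at 26.5% in the control (26.3% to 26.6%, 253174 calls) and 28.4% in treated cells (28.3% to 28.6%, 424243 calls). By the average over sites it was at 29.5% and 28.7%. Its density was even, with a median of 8.92 sites per kb, whereas the windows just inward of it were dense. The window from 72700001 had 68.0 sites per kb and was at 85.5% in the control, and the window from 72800001 was at 62.1%. Inside the stretch the first window was at 39.8% and the others lay between 19.3% and 29.0% in the control. The 3 lowest of all end windows were in it, at 74000001 with 19.3% (18.7% to 19.9%), at 74300001 with 19.8% (18.7% to 21.0%) and at 73800001 with 21.9% (21.4% to 22.4%). In treated cells they were at 22.2%, 20.4% and 23.5%.

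Other ends held low stretches away from the tip. On chromosome 11 from 71400001 to 72600000, 12 windows were at 38.5% in the control (38.4% to 38.7%) and 39.7% in treated cells (39.5% to 39.8%), with a median of 8.44 sites per kb. The same end was highly methylated nearer the telomere: 8 windows from 73500001 to 74300000 were at 86.0% (86.0% to 86.1%) and 86.6% (86.5% to 86.6%), with 32.8 sites per kb. On chromosome 5 from 86600001 to 87800000, 12 windows were at 42.4% in the control (42.3% to 42.6%) and 44.3% in treated cells (44.2% to 44.5%). All 30 matched windows of that end were below their matched level in the control. On chromosome 32 from 36500001 to 37500000, 10 windows with only 4.74 sites per kb were at 37.0% in the control and 44.1% in treated cells, a gap of 7.09 points that was 2.74 points by the average over sites.

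The longest highly methylated stretch was on chromosome 7 from 79300001 to 80500000, 12 windows at 87.9% in the control (87.8% to 88.0%) and 88.3% in treated cells (88.2% to 88.4%). On chromosome 33 from 29900001 to 30900000, 10 windows were at 87.3% and 87.6%. On chromosome 23 the last 8 windows, from 51500001 to 52294402, were at 87.9% and 88.3%, and their density went from 5.54 sites per kb in the first to 46.8 in the last. Here the sparse windows were the more methylated ones, with 93.1% in the control in the window from 51500001 and 86.2% in the window from 52200001. The highest end windows in the control were on chromosome 3 at 91200001 with 94.5% (94.3% to 94.8%), on chromosome 13 at 61900001 with 94.5% (94.1% to 94.8%) and on chromosome 27 at 43100001 with 94.4% (94.1% to 94.7%). In treated cells these were at 95.4%, 94.7% and 94.9%.

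**Figure D3:**
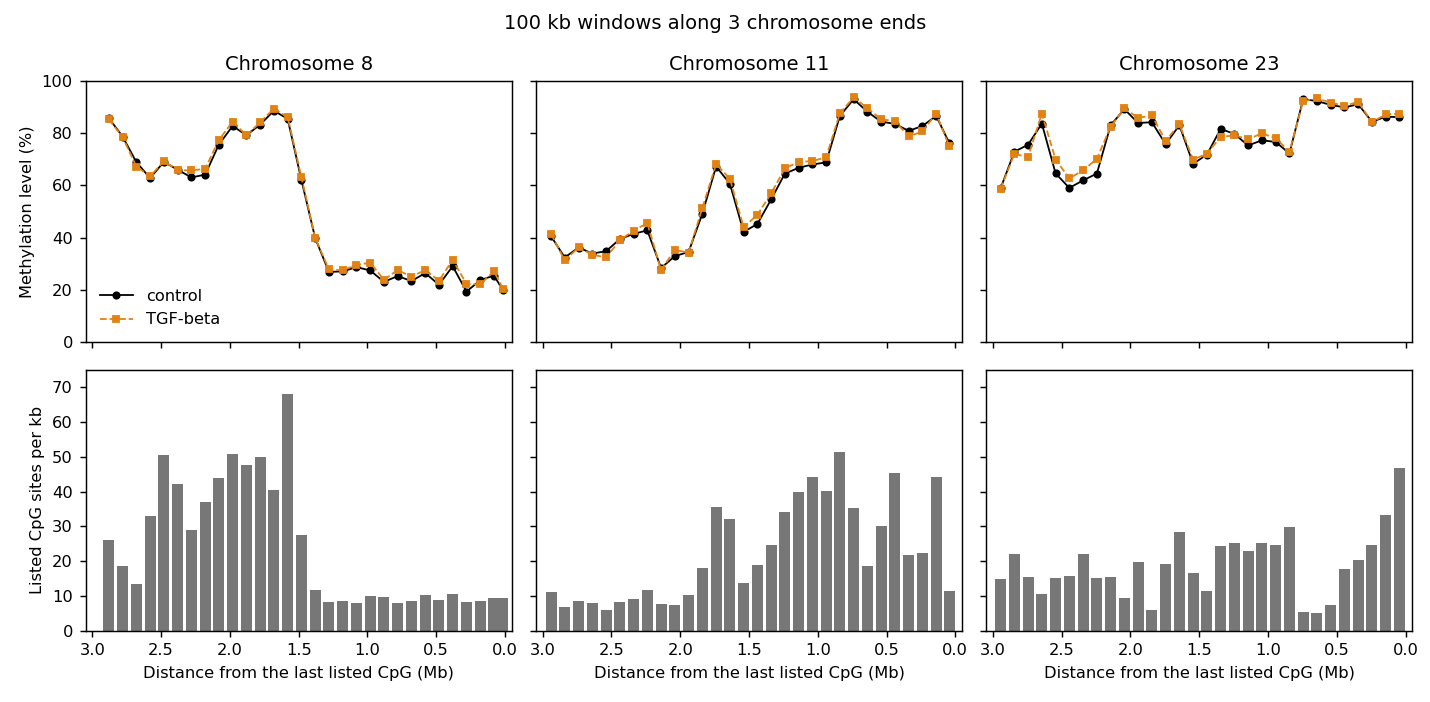
Methylation level (%) of 100 kb windows in the control (black) and TGF-beta (orange), above, and listed CpG sites per kb, below, against distance from the last listed CpG (Mb) on chromosomes 8, 11 and 23. On chromosome 8 the level falls from 85.5% to under 30% towards the telomere, on chromosome 11 it rises towards it, and on chromosome 23 the last windows stay above 84%.

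Some last windows stood apart in depth. The last window of chromosome 7, from 80900001 to 80974470, had 216 calls per site for the control and 349 in treated cells. Its summed level was 33.6% in the control and 28.1% in treated cells, but its average over sites was 45.6% and 43.5%. The last window of chromosome 27, from 45800001 to 45876709, had 114 and 87.1 calls per site and was at 84.5% and 76.5% by summed calls, against 70.2% and 68.8% by the average over sites. In both windows the control's summed level and its average over sites were thus more than 10 points apart, in opposite directions.

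At the scale of 1 kb, the CpG-dense windows of the ends were largely methylated. A window was counted as dense with 40 or more listed CpG sites, about the density of a CpG island, and needed 5 kept sites. The ends held 19415 such windows, 173 per Mb, against 29.4 per Mb in the rest of the autosomes. In the control 4.44% of them were under 20% methylated, whereas in the rest 19.8% of 61522 were. In treated cells the shares were 4.29% and 19.5%. At 80% or more were 51.5% in the ends and 37.4% in the rest of the control. The median dense window was at 80.5% in the ends and 73.5% in the rest of the control, and at 81.0% and 74.7% in treated cells. The share under 20% was lower in the end than in the rest on 32 of 38 chromosomes in the control and on 33 in treated cells.

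The gap was widest among the densest windows. With 80 or more listed sites, the median was at 84.0% over 2697 windows of the ends and at 20.2% over 11501 windows of the rest in the control. In treated cells it was at 84.8% and 22.9%. At 60 to 79 sites it was 81.9% and 74.6% in the control, and at 40 to 59 sites 78.3% and 76.1%. Median depth was alike, with 15.1 calls per site in the ends and 14.7 in the rest in the densest class of the control. Counted per Mb of sequence, unmethylated dense windows were not scarce in the ends: 7.69 per Mb were under 20% in the control, against 5.83 per Mb in the rest. The rate in the ends includes chromosomes 20 and 35, with 251 of the 862 windows, and was not computed without them. Dense windows at 80% or more numbered 9994 in the ends, 89.1 per Mb, and 22979 in the rest. The low share in the ends thus went with a large number of methylated dense windows.

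**Figure D4:**
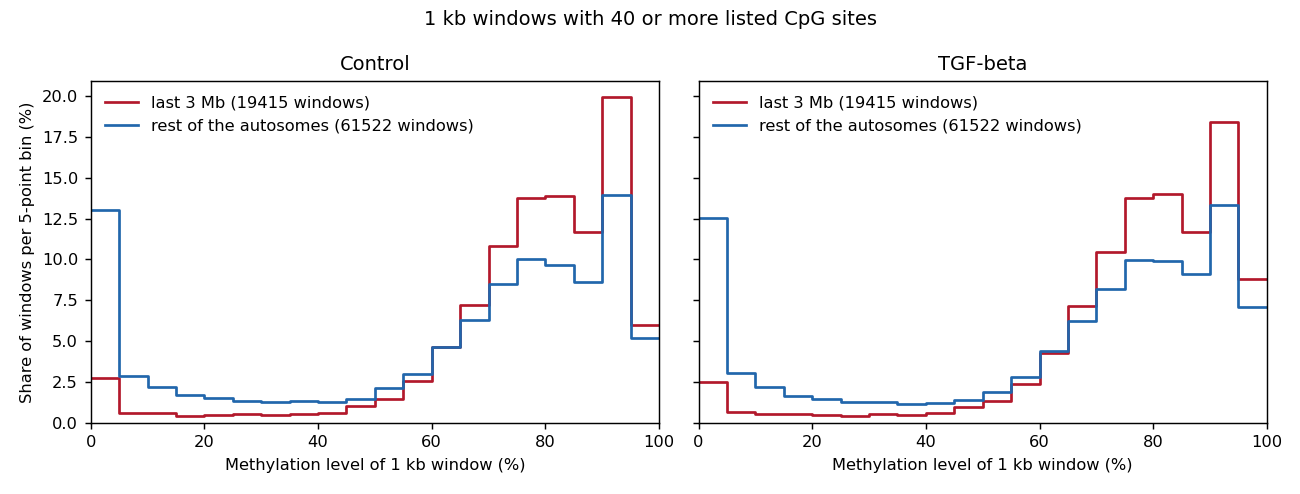
Share (%) of 1 kb windows with 40 or more listed CpG sites in each 5-point bin of methylation level (%), for the last 3 Mb of the autosomes (red, 19415 windows) and the rest (blue, 61522 windows), in the control (left) and TGF-beta (right). The rest has a peak near 0% that is small in the ends, where 4.44% of windows were under 20% in the control against 19.8% in the rest.

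By their medians, windows of intermediate and low CpG density went the other way. With 5 to 9 listed sites the median was 55.5% in the ends and 60.9% in the rest of the control, with 10 to 19 sites 63.7% and 71.7%, and with 20 to 39 sites 72.2% and 75.4%. The end was lower on 24, 23 and 21 of 38 chromosomes in these classes, so this direction was far from shared by all ends. In treated cells the medians were 54.9% and 62.7%, 63.6% and 73.7%, and 72.3% and 76.5%.

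The unmethylated windows were a small share of the dense windows in most ends, and their numbers were uneven between ends. Of the 862 dense end windows under 20% in the control, 251 were on chromosomes 20 and 35. The highest shares were on chromosome 35, with 116 of 233 dense windows under 20%, chromosome 18 with 62 of 167 and chromosome 27 with 18 of 68. Chromosome 20 had 135 of 1505, so its large number was a share of only 8.97%. Chromosome 28 had 10 of 1469 and chromosome 1 had 5 of 958. On 28 chromosomes the share was under 10%. Without chromosomes 20 and 35 the share was 3.46% in the ends and 19.6% in the rest. Windows inside 100 kb windows under 50% were under 20% in 89 of 409 cases, against 500 of 11842 in 100 kb windows of 50% to 80% and 273 of 7164 in those of 80% or more. The 862 windows formed 641 separate stretches, of which 447 were a single window and 5 were 4 or more adjacent windows. The longest were 5 windows each. That on chromosome 20 from 56627001 to 56632000 was at 7.06% in the control and 6.44% in treated cells, and that on chromosome 24 from 46344001 to 46349000 was at 2.05% and 4.74%. Of the dense end windows, 795 were under 20% in both libraries, 67 in the control alone and 38 in treated cells alone.

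Levels in the ends were close in the 2 libraries. Over the 1138 windows they were related with r = 0.98. The difference of TGF-beta from control had a median of 0.682 points by summed calls (quartiles -0.718 and 1.86) and was above 0 in 731 windows. By the average over sites its median was -0.0197 points, it was above 0 in 561 windows, and with every site thinned to equal numbers of calls the median was -0.0906 points. The summed and site medians differed in sign, so no direction can be given for the ends as a whole. Single windows had opposite signs of the summed and site differences in 456 of 1138 cases in the ends. In the rest this was so in 8362 of 20898, a similar share. The median over the rest of the autosomes was 0.682 points by summed calls and 0.283 by the average over sites. There the difference was above 0 in 12606 and 11714 of the 20898 windows. Relative to windows of equal density on the same chromosome, the difference in the ends was higher by 0.205 points by summed calls and different by -0.583 points by the average over sites (below 0 on 28 of 38 chromosomes). Depth moved with density: the median log2 ratio of TGF-beta to control depth was 0.72 in the ends and 0.45 in the rest, and its part in these differences was not tested. At matched density the ends differed from the rest in this ratio by a median of -0.05.

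Differences of 10 points or more were few. In treated cells 12 end windows (1.05%) were higher by 10 points or more, against 2.39% of all autosomal windows, and 9 (0.791%) were lower, against 1.48%. At the density of the ends, the shares of the rest were 0.956% and 0.806%, so by summed calls the counts of the ends were near this background. This reading did not carry over to the average over sites. There 3 end windows (0.264%) were higher by 10 points, against 1.3% of all autosomal windows and 0.567% of the rest at the density of the ends. Lower by 10 points were 7 (0.615%), against 0.567% of all autosomal windows and 0.186% of the rest at the density of the ends. After thinning to equal calls 3 end windows (0.264%) were higher, against 1.42% of autosomal windows, and 6 (0.527%) lower, against 0.617%. These are counts of single windows between 2 libraries, and the differences between the shares were not tested. For a view of technical spread, the strands of a CpG, which are read separately, differed by 10 points or more within the control in 7 end windows and within the treated library in 13. Over all 22036 autosomal windows, against 1138 in the ends, these counts were 187 and 600. Between control and treated cells, both strands showed a gap of 10 points with one sign in 9 end windows and in 585 autosomal windows. Opposite signs occurred in 0 autosomal windows, so their absence is not particular to the ends. The 12 higher windows lay between 36.2% and 64.9% in the control and the 9 lower ones between 57.4% and 80.4%, values that the size of the difference itself helped to select.

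**Figure D5:**
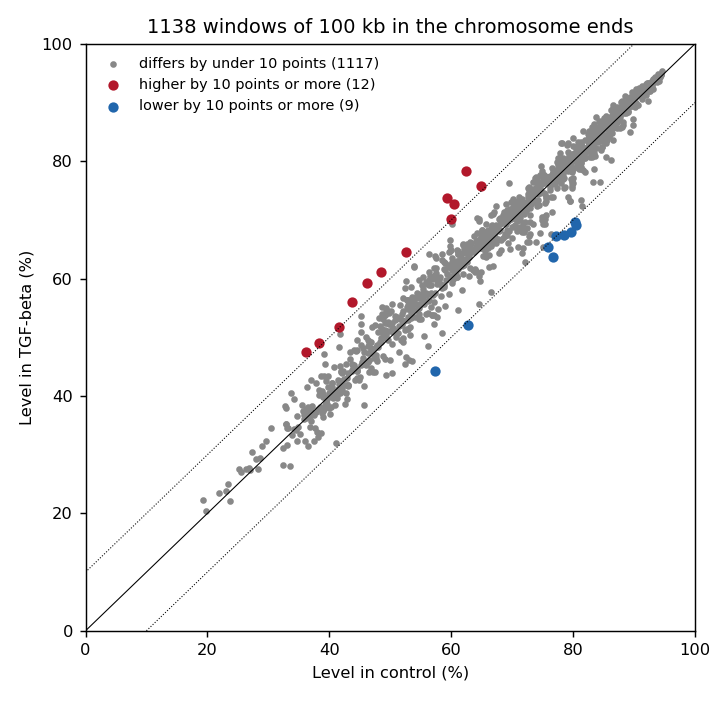
Methylation level (%) in the control (x) and TGF-beta (y) of the 1138 windows of 100 kb in the chromosome ends, with lines at equality and at 10 points to each side. The 12 windows higher by 10 points or more (red) lie between 36.2% and 64.9% in the control, and the 9 lower ones (blue) between 57.4% and 80.4%.

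The largest gains with at least 5 points on each strand were mostly single windows. Chromosome 27 at 45100001 to 45200000, 0.677 Mb from the end, was at 62.4% in the control (61.8% to 63.0%, 25602 calls) and 78.3% in treated cells (77.8% to 78.8%, 29303 calls). By the average over sites this was a gain of 12.5 points. Chromosome 14 at 58800001 to 58900000 was at 59.3% (58.9% to 59.7%) and 73.8% (73.5% to 74.0%), and at 12.1 points by the average over sites. Chromosome 13 at 61100001 went from 46.2% to 59.3%, or 7.28 points by the average over sites, and chromosome 32 at 37400001 from 43.7% to 56.1%, or 9.55 points. Chromosome 5 at 88800001 to 88900000, next to the last short window of that chromosome, went from 48.6% (47.9% to 49.2%) to 61.1% (60.6% to 61.6%), and its inward neighbour at 88700001 from 36.2% to 47.5%. These 2 windows were the only adjacent ones among the 12.

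The losses included the only stretch of at least 3 adjacent end windows that differed by 10 points in one direction. It lay on chromosome 12 from 69600001 to 69900000, 2.6 Mb from the end, with 3867 sites. It was at 77.5% in the control (77.3% to 77.8%, 100659 calls) and 66.2% in treated cells (65.9% to 66.4%, 138235 calls), and at 77.1% and 64.4% by the average over sites. Its 3 windows differed by between -13.0 and -10.1 points. By summed calls the largest single loss was on chromosome 3 at 89500001 to 89600000, from 57.4% in the control (56.7% to 58.0%) to 44.3% in treated cells (43.7% to 44.9%), or -12.1 points by the average over sites. By that average the window on chromosome 12 from 69800001 lost more, with -14.3 points. Chromosome 15 at 63500001 went from 79.7% to 68.0%, or -13.8 points by the average over sites. Chromosome 26 at 37800001 went from 80.4% to 69.2% by summed calls but differed by 1.41 points in the opposite direction by the average over sites, so its direction is not settled.

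At 1 kb, the summed calls of each window were compared by Fisher's exact test, two-sided, with Benjamini-Hochberg adjustment over the 1497941 windows of the genome. Calls required an adjusted p under 0.05 together with a difference of 20 points or more. The test compares 2 libraries, not conditions. It treats calls as independent, so its p-values can be too small where several calls come from the same read. Of 90496 windows tested in the ends, 991 (1.10%) were called higher in treated cells, against 2.22% of the genome, and 1120 (1.24%) lower, against 1.43%. In the rest of the autosomes 2.35% were higher and 1.44% lower. At equal density the ends had fewer higher calls: 2.44% against 3.29% with 5 to 9 listed sites, 1.33% against 1.96% with 10 to 19 and 0.333% against 0.706% with 20 to 39. The share was lower in the end on 27, 31 and 31 of 38 chromosomes. Lower calls were at 3.09% in the ends and 2.34% in the rest with 5 to 9 sites and at 1.42% and 0.891% with 10 to 19, but they were less frequent in the end on 20 and 19 of 38 chromosomes, so these larger shares came from part of the chromosomes. A further limit of 20 points in the average over sites left 343 higher (0.379%), against 0.861% of the genome, and 400 lower (0.442%), against 0.455%. At the density of the ends the rest had 0.661% higher and 0.274% lower under that limit.

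Of 62995 end windows with at least 10 sites and 200 calls in each library, 273 (0.433%) were called higher with 10 points on each strand, against 0.91% of such windows in the genome. Called lower were 253 (0.402%), against 0.389%. At the density of the ends the shares of the rest were 0.767% and 0.292%. The largest gain was on chromosome 2 at 85249001 to 85250000, from 18.5% in the control (14.1% to 23.7%, 270 calls) to 73.1% in treated cells (66.9% to 78.6%, 234 calls), with an adjusted p of 2.9e-33 in the exact test. It was the only window called higher among the 7 tested within 3 kb, and the 100 kb window around it was at 90.4% and 91.1%. The level on chromosome 36 between 29077001 and 29078000 went from 28.0% (23.4% to 33.0%) to 76.2% (73.3% to 79.0%), or by 28.7 points by the average over sites. The CpG-dense window on chromosome 30 at 37799001 to 37800000, with 54 listed sites, went from 17.9% to 66.8% inside a 100 kb window at 81.0% and 82.2%.

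The largest loss was on chromosome 27 at 45356001 to 45357000, from 90.7% in the control (87.7% to 93.2%, 463 calls) to 44.3% in treated cells (39.1% to 49.5%, 368 calls), with an adjusted p of 2.2e-46 in the exact test. By the average over sites it differed by -33.8 points, and 2 of 7 tested windows within 3 kb were called lower. Chromosome 14 at 59274001 to 59275000 went from 66.8% to 26.4%, or -30.1 points by the average over sites. Chromosome 7 at 79714001 to 79715000 went from 71.0% to 30.7%, or -26.7 points, inside the longest highly methylated stretch of the ends.

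The first 3 Mb of the autosomes, their centromere end, showed part of the same pattern. These 1139 windows had a median of 11.1 sites per kb and were at 64.9% in the control. Against windows of equal density on the same chromosome outside both ends they differed by a median of -3.76 points in the control (below 0 on 22 of 38 chromosomes), where the last 3 Mb against the same windows gave -5.16 points (below 0 on 27). The difference between the 2 kinds of end was not tested, and a lower level at matched density was not shown to be particular to the telomere end.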

How the data were processed

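The authors deposited counts of methylated and unmethylated calls for each listed CpG cytosine of the control and treated cells, with the strands on separate lines. Per the submitters' processing notes, Bismark, Bowtie 0.12.8 and the build canFam3 were used; per the labels' protocols, reads were placed with SOAPaligner2. Which of these made the files, and how duplicates and mate overlaps were handled, is not stated in the sources at hand. The libraries held 656122583 and 1019766599 calls, and 1 line in each file that names no chromosome was left out. Column 3 was taken as methylated because it is almost empty on mitochondrial DNA.

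Positions p and p+1 were joined into CpG sites, 5 calls in both libraries were required, and levels were computed in windows of 100 kb and 1 kb. Classes of listed sites per kb had edges at 4, 6, 8, 10, 12, 15, 20, 25 and 30. The windows and lists were chosen with earlier results of these data known. Named windows are the 5 largest gains and losses with 5 points on each strand, the 3 highest and lowest levels, and the 3 largest gains and losses among called 1 kb windows. The comparison of dense 1 kb windows and the chromosome counts were chosen after the data were examined. The 1 kb test was tested on simulated calls drawn independently. These leave out shared reads, PCR copies and variation between cultures, so they do not show how many real calls are false. Alternatives were other coverage, weighting, strand, matching, grid and end length. Python 3.11.15, numpy 2.4.6, scipy 1.17.1, pandas 2.3.3 and numba 0.67.0 were used.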

Additional observations from a re-analysis of the deposited data

How the results depend on the processing

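The median difference of end windows from matched windows, -5.25 points in the control and -4.47 in treated cells, kept its sign under every coverage, weighting, strand and grid choice tried, and turned under 2 choices of matching: 2.36 and 2.26 points with matching at the scale of 1 kb windows, and 9.11 and 8.40 points with no matching. It shrank to -2.75 and -2.39 points against the 10 nearest windows in density. Over the last 1 Mb it was -0.702 and -0.449 points and over the last 5 Mb -8.63 and -7.69 points. In these 2 settings the comparison windows changed too, being all those outside the shorter or longer end. Against windows outside the last 3 Mb, the last 1 Mb gave -1.60 and -1.84 points over 286 matched windows of 379. Against windows more than 10 Mb from the end it gave -4.41 and -3.63 points over 235. With all windows outside the last 1 Mb, 326 were matched, so these values rest on different end windows as well. The cause was not tested. Chromosomes below 0 in the control numbered 26, but 23, 19, 10 and 19 under the nearest windows, 1 kb matching, no matching and the last 1 Mb. In the control it was -4.34 points by the average over sites and -4.70 on the plus strand alone. In treated cells it was -5.41 points with calls drawn to equal numbers, -5.06 with windows counted back from the highest listed position, -4.88 without the first 3 Mb, -5.06 without chromosomes 3, 6, 7 and 25, and -4.10 against the median of matched windows, a setting chosen after seeing the data.

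The median difference of the libraries, 0.682 points by summed calls, reversed to -0.0197 points by the average over sites and -0.0906 points with calls drawn to equal numbers. End windows higher by 10 points numbered 12, but 3 by the average over sites, 3 with equal calls, 6 over the last 1 Mb and 19 over the last 5 Mb. Lower ones numbered 9, but 1 over the last 1 Mb and 15 over the last 5 Mb, which hold fewer and more windows. A further limit of 20 points in the average over sites left 343 of 991 higher and 400 of 1120 lower 1 kb calls. The loss on chromosome 26 at 37800001 reversed to 1.41 points by the average over sites and 1.46 with equal calls. Chromosome 11 reversed to 0.604 points with no matching and 14.6 over the last 1 Mb.

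The share of dense 1 kb windows under 20% in the control stayed lower in the ends than in the rest under the settings tried, all chosen after seeing the data. For windows of 60 or more listed sites it was 7.56% and 34.8%, and without chromosomes 20 and 35 it was 3.46% in the ends. In the rest it was 19.4% with 10 calls per site and 21.2% by the average over sites. Of the main values under an alternative, 37 stayed within the counting error of an end window or within 1.5 times the count, 26 moved further and 6 reversed. No paired analysis was possible because each group has 1 library, and no library could be left out. Depth of 5 calls per site limits single sites, whereas an end window rests on a median interval of 0.418 points to each side in the control.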
